A study of Mus musculus with 10 samples.

Results

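Transcripts of 10 mouse genes for cell-surface and basement-membrane heparan sulfate proteoglycans were examined in embryos that lack fibulin-1. The genes were the glypicans Gpc1, Gpc3, Gpc4 and Gpc6, the syndecans Sdc1, Sdc2, Sdc3 and Sdc4, perlecan (Hspg2) and agrin (Agrn). They were taken by name as a family, with earlier results of these data known, and every probe set that the platform annotation gives to them was included, which came to 20 of the 22626 probe sets that are not controls. Of 12393 genes with a probe set of their own on the array, the members are 10. A probe set is a group of array probes that reads the same transcript. Gene expression had been measured on Affymetrix arrays, 1 per sample, in microdissected E10.5 tissue with the hindbrain and pharyngeal arches 1 to 4. The study compared 5 Fbln1-null arrays, from embryos homozygous for a gene trap insertion in Fbln1, with 5 wildtype arrays. Embryos came from matings of heterozygous carriers and were genotyped from yolk sac, and the null embryos were numbered 3, 4, 5, 7 and 8 and the wildtype embryos 1 to 5. The labels give neither the strain background nor which embryos were littermates, so any p-value here reflects only the variation among these 10 arrays. The title of the series places the question in signalling by the growth factor FGF8.

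Heparan sulfate proteoglycans are proteins that carry long sulfated sugar chains. Glypicans are held on the outer cell surface by a lipid anchor, syndecans cross the membrane, and perlecan and agrin are secreted into basement membranes. Their sugar chains bind fibroblast growth factors and are needed for these to join their receptors, and they also bind Hedgehog, Wnt and BMP ligands, which pattern the hindbrain and the arches. Fibulin-1, a secreted matrix glycoprotein, is also found in basement membranes.

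The arrays bore out the genotype labels. The brighter Fbln1 probe set had a log2 signal of 2.66 ± 0.13 in null and 4.55 ± 0.50 in wildtype tissue (SD, n = 5 each), and the ranges were 2.52 to 2.85 and 3.83 to 5.11. Array medians were 3.20 to 3.29 and 9618 to 9943 probe sets per array lay over log2 4. Markers of the labelled tissue were present. Over the filter described below were 6 of 8 neural progenitor, 8 of 8 neuron, 5 of 8 neural crest mesenchyme and 6 of 8 epithelial markers, but also 4 of 8 endothelial, 2 of 8 heart, 4 of 8 muscle and somite and 3 of 7 erythroid markers, while the leukocyte list had 0 of 8. Wildtype replicate 4 was the 1 array with high Xist and low Y-linked signal.

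Of the 20 probe sets, 12 had a log2 value over 4 on at least 5 of the 10 arrays, the filter for the test, and all 12 were over 4 on all 10 arrays. They read 8 of the 10 genes, and probe sets of the same gene share its transcript and are not independent. Sdc3 and Hspg2 were not measured over the filter. The 12 probe sets were compared between genotypes in a limma fit over all 9801 probe sets that passed the same filter. With the Benjamini-Hochberg adjusted p threshold of 0.05, 0 of the 12 passed, against 0.0204% of all 9801. At an unadjusted p under 0.05 stood 2 of the 12, Gpc3 and 1 of the 3 Sdc2 probe sets, or 16.7% against 12.4% of all. On the same 2 probe sets the genotypes did not overlap (16.7%, against 2.77% of all). With so few members, these shares rest on 2 probe sets. Mean signal in null tissue was higher on 6 of the 12 and lower on 6. The median log2 difference, null minus wildtype, was -0.002 over the 12, against -0.04 over all 9801.

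**Figure D1:**
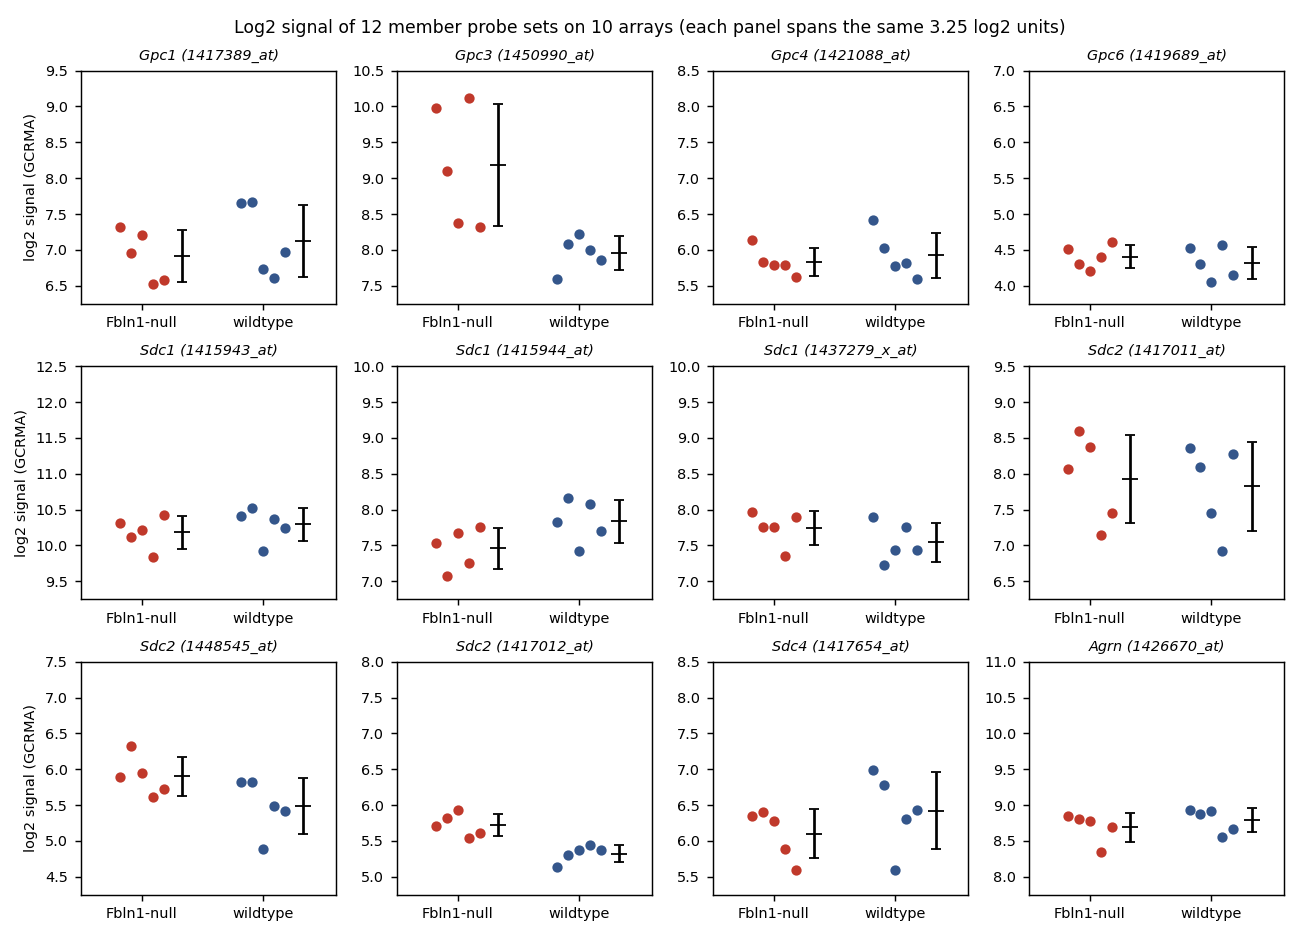
Log2 signal of the 12 proteoglycan probe sets over the filter, with a point for each array, Fbln1-null at the left and wildtype at the right of each panel, and the mean ± SD beside the points (n = 5 each). All panels span the same number of log2 units. The null points of Gpc3 and of Sdc2 1417012_at lie above every wildtype point, and the groups overlap in the other 10 panels.

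Among the glypicans, Gpc3 had the largest difference of the 12 probe sets. Gpc3 is a growth-restraining glypican that binds Hedgehog proteins and whose loss in people causes an overgrowth syndrome. Its log2 signal was 9.97, 9.11, 8.37, 10.12 and 8.32 in null replicates 3, 4, 5, 7 and 8, against 7.60, 8.08, 8.23, 8.00 and 7.87 in wildtype replicates 1 to 5. Every null array was above every wildtype array, but the gap between the groups was only 0.10, since null replicates 5 and 8 lay just over the wildtype range and null replicates 3 and 7 far above it. The means were 9.18 ± 0.85 in null and 7.95 ± 0.24 in wildtype tissue (SD, n = 5 each). The log2 difference was 1.22 (SE 0.33, 95% interval 0.51 to 1.94), or 2.34-fold, with an unadjusted limma p of 0.00284 and an adjusted p of 0.179 over the 9801 probe sets, so Gpc3 did not pass the threshold. The limma fit takes the same spread in both genotypes, which these SDs do not show, so its SE, interval and p may overstate the precision. An exact permutation test of this single probe set gave a two-sided p of 0.00794, the smallest that 5 against 5 arrays can give, before any correction for the 20 probe sets so examined. Among all 9801 probe sets, 6 (0.0612%), Gpc3 included, had a log2 difference at least as large and positive. This rank leaves out the spread. Only 0.633% of the 9801 had an SD over the null arrays at least as large as that of Gpc3, and the median was 0.27.

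The Gpc3 difference lay between 0.99 and 1.44 when any 1 array was left out, and its adjusted p between 0.107 and 0.322. The lowest value came without null replicate 7. Gpc3 is on the X chromosome, and wildtype replicate 4, the array with Xist signal, read 8.00, inside the range of the other wildtype arrays. In bulk tissue, a change in the number of cells of a type and a change in RNA per cell cannot be told apart. The mean level of the neural crest mesenchyme markers over the filter was 8.77 to 9.40 in null and 8.66 to 9.12 in wildtype arrays. That of the neural progenitor markers was 6.92 to 7.52 in null and 7.29 to 7.69 in wildtype arrays. For the neuron markers it was 8.29 to 8.86 in null and 7.90 to 8.87 in wildtype arrays. Means higher and lower in null tissue numbered 3 and 2 for neural crest mesenchyme, 1 and 5 for progenitors, and 6 and 2 for neurons. Of 8 endothelial markers, 4 were over the filter (Tek, Emcn, Kdr and Egfl7), with a mean level of 5.82 to 6.30 in null and 5.93 to 6.34 in wildtype arrays, and Pecam1, Cdh5, Tie1 and Cldn5 were under log2 4 on all arrays. The part of these cell types in the Gpc3 difference was not tested.

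The other glypicans did not show this pattern. Gpc4, a glypican of neural progenitors and other embryonic cells, is the nearest protein-coding gene to Gpc3 on the X chromosome, with 0 others between them in the RefSeq table, and has the same orientation. Its log2 signal was 6.14, 5.83, 5.79, 5.79 and 5.62 in null replicates 3, 4, 5, 7 and 8, against 6.42, 6.02, 5.78, 5.82 and 5.59 in wildtype replicates 1 to 5. These ranges overlapped almost entirely, and the log2 difference was -0.09 (SE 0.16, 95% interval -0.44 to 0.26, limma adjusted p = 0.870). The log2 signal of Gpc3 minus that of Gpc4 within each array was 2.57 to 4.32 in null and 1.18 to 2.44 in wildtype arrays, a difference of 1.32 between the genotypes (two-sided exact permutation p = 0.00794). This contrast was chosen after the values were seen, as 1 of 3, and rests on the choice of Gpc3 for its difference. It compares how far each transcript moved and not their levels, which different probes cannot give.

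The sequences before the starts of these neighbours are shown because these adjacent genes gave different values. They are the 250 bases upstream of the RefSeq start on the minus strand in GRCm38.p6, at chrX:52613975-52614224 for Gpc3 and chrX:52164924-52165173 for Gpc4, written 5′ to 3′. Capitals mark matches to CCAAT and to the GC box GGGCGG on either strand.
Gpc3: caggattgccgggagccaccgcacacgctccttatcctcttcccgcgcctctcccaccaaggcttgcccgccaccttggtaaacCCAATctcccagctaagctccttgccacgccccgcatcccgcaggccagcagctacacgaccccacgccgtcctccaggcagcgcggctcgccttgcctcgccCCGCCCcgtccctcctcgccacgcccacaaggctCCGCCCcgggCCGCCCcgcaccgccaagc
Gpc4: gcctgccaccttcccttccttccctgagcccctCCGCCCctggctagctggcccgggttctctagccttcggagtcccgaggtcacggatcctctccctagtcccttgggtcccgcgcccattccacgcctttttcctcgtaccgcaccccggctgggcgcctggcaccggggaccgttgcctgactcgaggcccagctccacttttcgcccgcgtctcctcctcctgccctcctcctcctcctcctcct
The Gpc3 stretch held 1 CCAAT, with its first base at position -166, and 3 GC boxes on the opposite strand, at -63, -29 and -19. The Gpc4 stretch held 0 CCAAT and 1 GC box on the opposite strand, at -217. Neither held TATAAA. The matches do not overlap each other. Of 32851 upstream stretches of the same length in the RefSeq table, 33.8% held CCAAT, 32.7% the GC box and 12.4% TATAAA on either strand. Both were rich in G and C, at 71.6% for Gpc3 and 68.4% for Gpc4 against a median of 52.4% over all stretches, and held 25 and 18 CpG pairs against a median of 6. These matches describe the letters of the window and show no site in use. Of the 10 members, 7 had an entry in the table, and Gpc1, Gpc6 and Sdc2 did not.

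Gpc1, a glypican prominent in the nervous system, had log2 signals of 7.31, 6.95, 7.21, 6.53 and 6.57 in null replicates 3, 4, 5, 7 and 8, against 7.65, 7.67, 6.74, 6.60 and 6.97 in wildtype replicates 1 to 5. The wildtype arrays split, with replicates 1 and 2 above every null array and the other 3 inside the null range. The log2 difference was -0.21 (SE 0.24, limma adjusted p = 0.778), and without wildtype replicates 1 and 2, a setting chosen after the data were seen, it was 0.14 (SE 0.21). It was -0.34 to -0.08 with any 1 array left out, and -0.56 (limma adjusted p = 0.331) with the ratio of the 3′ and 5′ actin control probe sets as a covariate. Gpc6, a glypican of mesenchyme that promotes Hedgehog signalling in growing mouse bone, was near the filter, with 4.21 to 4.61 in null and 4.05 to 4.56 in wildtype arrays. Its log2 difference was 0.09 (SE 0.14, 95% interval -0.21 to 0.39, limma adjusted p = 0.855). Its dimmer probe set was under the filter and read 2.77 to 2.86 in null and 2.63 to 3.10 in wildtype arrays.

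**Figure D2:**
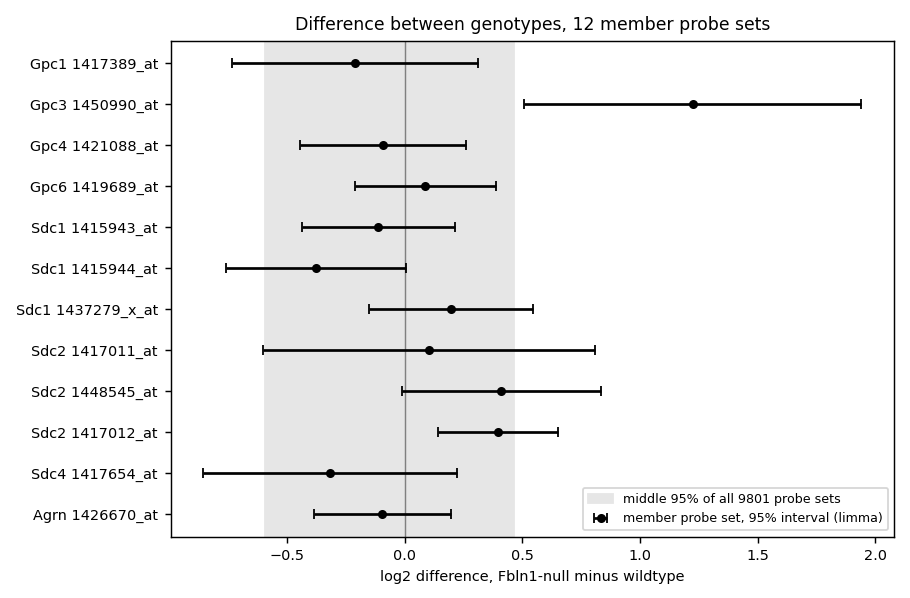
Log2 difference between Fbln1-null and wildtype arrays for the 12 proteoglycan probe sets over the filter, with 95% intervals from the limma fit, and the middle 95% of all 9801 probe sets as a grey band. The Gpc3 interval, 0.51 to 1.94, lies outside the band, and that of Sdc2 1417012_at, 0.14 to 0.65, is the other one that does not reach 0. The fit takes the same spread in both genotypes, and Gpc3 varied more in null arrays, so its interval may be too narrow.

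Among the syndecans, Sdc2 was read by 3 probe sets over the filter. Sdc2 is the syndecan of mesenchymal cells, whose cytoplasmic tail binds PDZ-domain adaptors, and its gene lies on the same chromosome, 15, as Fbln1. On probe set 1417012_at the log2 signal was 5.71, 5.82, 5.93, 5.54 and 5.61 in null replicates 3, 4, 5, 7 and 8, against 5.14, 5.30, 5.37, 5.44 and 5.37 in wildtype replicates 1 to 5. The groups did not overlap, with a gap of 0.10 between them. The means were 5.72 ± 0.16 in null and 5.33 ± 0.11 in wildtype tissue (SD, n = 5 each), a log2 difference of 0.40 (SE 0.12, 95% interval 0.14 to 0.65). It was not past the threshold (limma adjusted p = 0.234), and the exact permutation p of 0.00794 was again the smallest possible and uncorrected for the 20 probe sets.

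The other Sdc2 probe sets varied more. On 1448545_at the log2 signal was 5.89, 6.33, 5.94, 5.61 and 5.72 in null replicates 3, 4, 5, 7 and 8, against 5.83, 5.82, 4.89, 5.49 and 5.42 in wildtype replicates 1 to 5. The genotypes overlapped there, and wildtype replicate 3 was the lowest array. The log2 difference of 0.41 (SE 0.19, limma adjusted p = 0.419) was of the same size as on 1417012_at but with a wider interval, -0.01 to 0.83. The brightest probe set, 1417011_at, had 7.15 to 8.59 in null and 6.92 to 8.36 in wildtype arrays and a log2 difference of 0.10 (SE 0.33, 95% interval -0.60 to 0.81, limma adjusted p = 0.932). Its sign was not stable, since with the ratio of the 3′ and 5′ actin control probe sets as a covariate it was -0.38. That log2 ratio, which moves with RNA integrity and labelling, was 2.19 to 2.85 in null and 2.0 to 2.38 in wildtype arrays. The within-array difference between 1417012_at and 1417011_at did not separate the genotypes past 0.05 (null minus wildtype 0.29, two-sided exact permutation p = 0.437), so the disagreement of the probe sets is not shown to be more than their spread.

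Sdc1, the syndecan of epithelia, was read by 3 probe sets over the filter whose differences had unlike signs, none of them past the threshold. On the brightest, 1415943_at, the log2 signal was 9.83 to 10.43 in null and 9.92 to 10.52 in wildtype arrays, and the log2 difference was -0.11 (SE 0.15, limma adjusted p = 0.819). On 1415944_at it was 7.53, 7.08, 7.68, 7.25 and 7.76 in null replicates 3, 4, 5, 7 and 8, against 7.83, 8.15, 7.42, 8.08 and 7.70 in wildtype replicates 1 to 5. The genotypes overlapped, and the log2 difference was -0.38 (SE 0.18, 95% interval -0.76 to 0.005, limma adjusted p = 0.408). On 1437279_x_at, whose type can match transcripts of several genes, the signal was 7.35 to 7.96 in null and 7.23 to 7.89 in wildtype arrays, a log2 difference of 0.20 (SE 0.16, limma adjusted p = 0.670). The log2 signal of 1437279_x_at minus that of 1415944_at was 0.08 to 0.68 in null and -0.93 to 0.07 in wildtype arrays, so the genotypes did not overlap on this contrast (null minus wildtype 0.58, two-sided exact permutation p = 0.00794). This pair was picked after the values were seen, as 1 of the same 3 contrasts. It sets the Sdc1 probe set with the highest log2 difference over the filter against that with the lowest. The choice itself therefore favours a separation, and the p-value is no support for one. The remaining Sdc1 probe set, 1448158_at, was under the filter.

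Epithelial markers can be set beside Sdc1. Their mean level over the 6 genes over the filter was 6.03 to 6.44 in null and 5.90 to 6.32 in wildtype arrays. Of the 6 means, 4 were higher in null tissue and 2 lower. Trp63 had the largest difference, 0.68 (limma adjusted p = 0.296), with 6.82 to 7.70 in null and 6.02 to 6.98 in wildtype arrays. Epcam, an epithelial adhesion molecule, had 6.17 to 6.73 in null and 6.31 to 6.83 in wildtype arrays. The ranges overlapped in each case, and the part of these markers in the Sdc1 values was not tested.

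Sdc4, a syndecan of focal adhesions that works with integrins in binding fibronectin, had log2 signals of 6.35, 6.40, 6.28, 5.89 and 5.60 in null replicates 3, 4, 5, 7 and 8, against 7.0, 6.78, 5.59, 6.31 and 6.43 in wildtype replicates 1 to 5. Wildtype replicates 1 and 2 were again the highest arrays, and wildtype replicate 3 was the lowest of all 10. The log2 difference was -0.32 (SE 0.25, 95% interval -0.85 to 0.22, limma adjusted p = 0.657). It was -0.52 (limma adjusted p = 0.314) without wildtype replicate 3, -0.17 without wildtype replicate 1 and -0.006 without wildtype replicates 1 and 2. With the actin ratio as a covariate it was -0.57 (limma adjusted p = 0.423). Sdc3, the syndecan of neurons, was under the filter on all 3 of its probe sets, of which the brightest read 3.03 to 3.53 in null and 3.04 to 3.51 in wildtype arrays. On Sdc3 1436482_a_at the null arrays read 2.35 to 2.79 and the wildtype arrays 2.28 to 2.35, without overlap (1.83% of all 22626 probe sets do not overlap) but with a gap of 0.004. These values are at the bottom of the scale, where GCRMA compresses differences, and the limma adjusted p over all 22626 probe sets was 0.579.

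Both basement-membrane members gave little. Agrn, which encodes the organiser of acetylcholine receptors at nerve-muscle contacts and a linker of laminin to the cell surface, had log2 signals of 8.85, 8.81, 8.78, 8.35 and 8.69 in null replicates 3, 4, 5, 7 and 8, against 8.93, 8.87, 8.92, 8.56 and 8.67 in wildtype replicates 1 to 5. The groups overlapped and the log2 difference was -0.09 (SE 0.13, limma adjusted p = 0.833), with a 95% interval of -0.38 to 0.20. Perlecan, a large proteoglycan that bridges laminin and collagen networks, was under the filter on both probe sets of Hspg2. The brighter, 1418670_s_at, which can match several transcripts, read 3.15 to 3.93 in null and 3.01 to 3.79 in wildtype arrays. A low signal of these probes does not show that perlecan transcript is absent.

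The 8 probe sets under the filter were fitted among all 22626. At an adjusted p of 0.05, 0 of the 8 passed in the limma fit, against 0.00442% of all, and at an unadjusted p of 0.05 it was 1, Sdc3 1436482_a_at, against 7.11% of all.

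The wildtype arrays differed among themselves on several members. Wildtype replicates 1 and 2 had the 2 highest wildtype values on 5 of the 12 probe sets over the filter, and the highest wildtype array was 1 of them on 9. Null replicates 7 or 8 had the lowest null value on 10 of the 12. The same shares over all probe sets are not given, and probe sets of the same gene are not independent. These counts therefore describe the arrays and show nothing particular to the members. On Gpc3, wildtype replicate 1 had the lowest value of all 10 arrays and null replicate 7 the highest, while null replicate 8 was the lowest null array. Without wildtype replicates 1 and 2 the log2 difference of Gpc3 was 1.15 and that of Sdc2 1417012_at was 0.33.

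**Figure D3:**
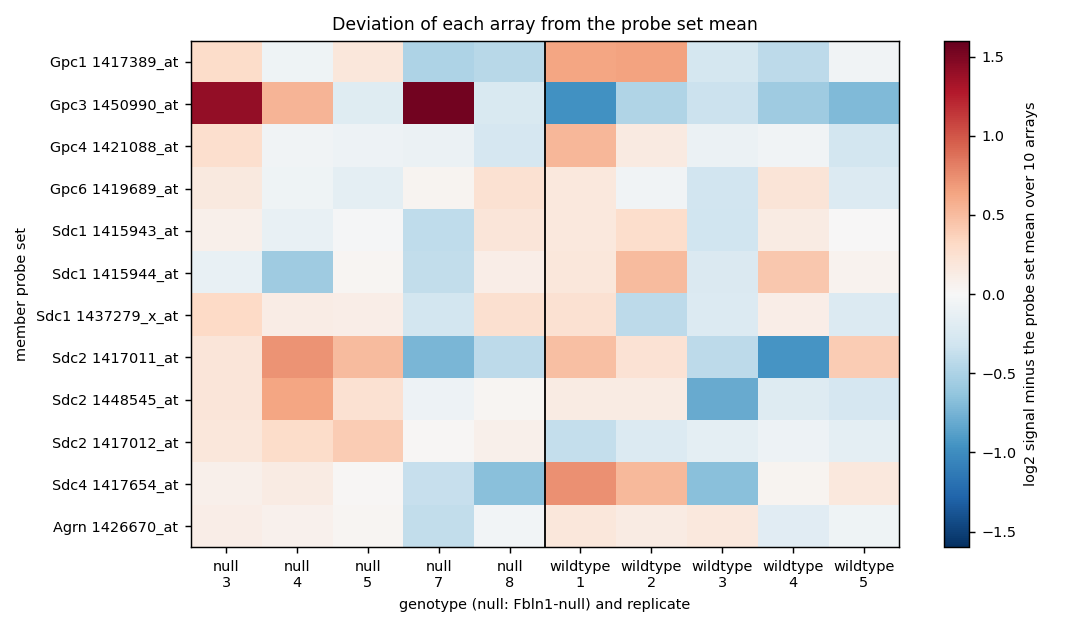
Log2 signal of each array minus the mean of its probe set over all 10 arrays, for the 12 proteoglycan probe sets over the filter. Fbln1-null arrays are left and wildtype arrays right of the line, and red is above and blue below the mean. Null replicates 3 and 7 stand out for Gpc3, and wildtype replicates 1 and 2 for Gpc1 and Sdc4. For Sdc4, wildtype replicate 3 and null replicate 8, both at -0.67, also stand out below the mean.

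The genes with patterns most like that of Gpc3 were sought among 5904 other genes, each by its brightest probe set over the filter. The closest by Pearson correlation over the 10 arrays were Rsl24d1, a ribosome biogenesis factor, with r = 0.97 (Spearman rho 0.88), Alyref, an adaptor for mRNA export, with r = 0.96 (rho 0.83), and Msantd2 with r = 0.96 (rho 0.87). The points share their arrays and genotypes, and the genes were picked for likeness, so these are descriptions only. Rsl24d1 read 11.95, 11.05, 10.53, 12.30 and 10.79 in null replicates 3, 4, 5, 7 and 8, against 10.07 to 10.65 in wildtype arrays. For all 3 genes the highest null array was replicate 3 or 7. Their log2 differences were 0.88 for Rsl24d1, 0.73 for Alyref and 0.47 for Msantd2, with limma adjusted p of 0.288, 0.336 and 0.314. In all, 17 of the 5904 genes had r over 0.9 with Gpc3.

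**Figure D4:**
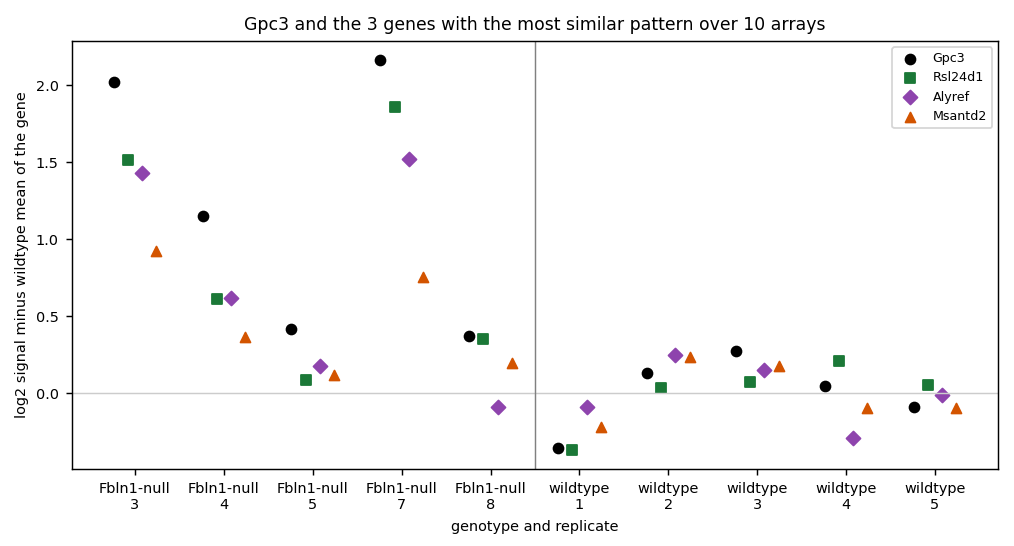
Log2 signal of Gpc3, Rsl24d1, Alyref and Msantd2 on each array minus the wildtype mean of the gene, with the 5 Fbln1-null arrays left and the 5 wildtype arrays right of the line. All 4 genes are highest in null replicates 3 and 7 and intermediate in null replicate 4.

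Genes that build, cut or bind these proteoglycans were described from 5 lists with 92 genes, of which 46 were over the filter. In the limma fit 0 of the 46 passed an adjusted p of 0.05, against 0.0338% of all 5912 genes, and 6 (13.0%) had an unadjusted p under 0.05, against 12.8% of all genes. Means were higher in null tissue for 22 and lower for 24. Among the 16 enzymes of heparan sulfate synthesis and editing, 5 means were higher and 11 lower, with a median log2 difference of -0.19 against -0.04 over all genes. The smallest p were those of Papss1, which makes the sulfate donor, at -0.83 (SE 0.20, limma adjusted p = 0.125), B4galt7, which adds a galactose to the linker of the chain, at 0.81 (SE 0.29), and Hs6st1, a 6-O-sulfotransferase, at -0.56 (SE 0.25). The genotypes overlapped for all 3, and for Papss1 the ranges were 5.59 to 6.26 in null and 6.25 to 7.25 in wildtype arrays.

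Of the other core proteins only collagen XVIII (Col18a1) was over the filter, with a log2 difference of -0.31 (SE 0.34). Among 12 receptors, adaptors and ligands, 8 means were higher and 4 lower (median 0.03), with the smallest p for Ptprs, a receptor phosphatase that binds heparan sulfate chains, at 0.40 (SE 0.16), Gipc1, a PDZ adaptor, at -0.46 (SE 0.19), and Slit2, a guidance ligand that binds heparan sulfate, at -0.24 (SE 0.13). Among 6 enzymes of shedding and cleavage 3 means were higher and 3 lower (median -0.03), led by Pigk, a subunit of the complex that attaches lipid anchors such as those of glypicans, at 0.17, the matrix protease Mmp2 at -0.31 and the sheddase Adam17 at 0.19. Among 11 basement membrane partners 6 means were higher and 5 lower (median 0.01), led by the laminin chains Lama1 at -0.49, Lamc1 at 0.29 and Lamb1 at -0.16. The limma adjusted p of these genes was 0.302 or more, apart from Papss1.

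**Figure D5:**
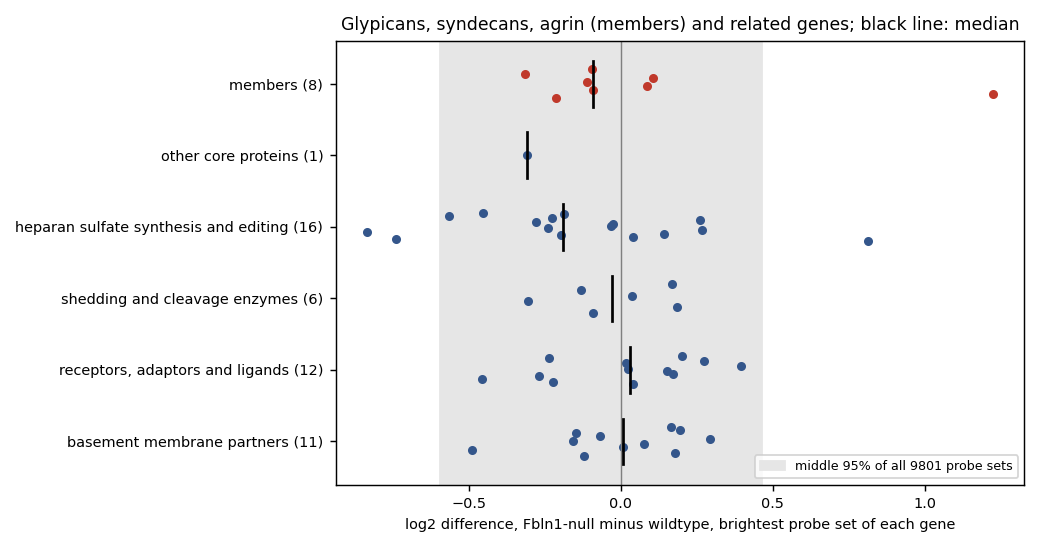
Log2 difference between Fbln1-null and wildtype arrays for the 8 proteoglycan genes over the filter (red) and for the 46 genes of 5 related lists (blue), by the brightest probe set of each gene. Black lines are list medians, and the grey band is the middle 95% of all 9801 probe sets. Gpc3, at 1.22, is the gene farthest from 0, and the list medians lie between -0.31 and 0.03.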

How the data were processed

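The deposited table holds log2 expression values, 1 per probe set and array, deposited by the authors after GCRMA, which the submitters' processing notes name without a version. This method uses probe sequence to estimate background, brings arrays to a common scale and compresses dim signals, so fold changes of dim genes are understated. Probe intensities were not used here. Of 22626 probe sets that are not controls (64 controls left out), 20380 have 1 gene symbol in the platform annotation, 691 several and 1555 none, and names came from the first kind only. All 10 members are in the RefSeq gene table (GRCm38.p6), used for names, chromosomes and neighbours.

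Probe sets over log2 4 on at least 5 of 10 arrays (9801, for 5912 genes) were fitted with limma 3.58.1 in R 4.3.3 (lmFit, eBayes, genotype alone, two-sided, Benjamini-Hochberg), and members under the filter among all 22626. Single probe sets were also compared by exact permutation over the 252 assignments of arrays (scipy 1.17.1). A gene is represented by its brightest probe set over the filter. The number of arrays limits the precision. In a check on simulated null and wildtype arrays, 200 of the 9801 probe sets were shifted by log2 0.5, 1, 1.5 or 2. The noise was normal, with the spread of each probe set, and independent between probe sets. The fit recovered 20.8% of changes of log2 0.5 and 78.4% of changes of log2 1. Noise shared between probe sets was not simulated, so recovery in the real arrays may be lower. The adjusted threshold is also easier to pass when many probe sets are shifted at once, and in the real arrays only 2 of the 9801 passed. The recovered shares are therefore not the power for a single member.

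Named were all members, the 3 smallest p of each list, the 3 genes most like the leading member, Fbln1 and sex-linked genes. The members and lists were chosen with earlier results of these data known. Alternatives covered filter, scaling, floor, variance model, array weights, covariates, a replicate block and each array left out. Replicate numbers 3, 4 and 5 occur in both genotypes, but the correlations of deviations of same-numbered arrays were -0.19, -0.34 and 0.16, so the numbers were not taken as pairs.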

Additional observations from a re-analysis of the deposited data

Results flagged for a closer look

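In 10 of the 40 groups of 5 arrays formed by the 20 proteoglycan probe sets, the highest or lowest array stood apart from its group by Dixon's test. Chance flags about 1 in 20 groups when values are normally distributed. All 10 were on probe sets under the filter, and 0 on the 12 over it. At the bottom of the scale arrays often share nearly the same value, so that rate does not apply there and the 10 show no excess. In null arrays these were Gpc6 1419688_at in replicate 5 (2.864, nearest 2.779), Sdc4 1448793_a_at in replicate 4 (2.321, nearest 2.262) and Hspg2 1418670_s_at in replicate 5 (3.928, nearest 3.359). In wildtype arrays they were Sdc1 1448158_at (3.131) and Sdc4 1448793_a_at (2.381) in replicate 4, Sdc3 1450027_at (3.512, the highest), Sdc3 1436482_a_at (2.279, the lowest) and Hspg2 1418669_at (2.48) in replicate 1, and Sdc3 1420853_at (2.266, the lowest) and Hspg2 1418670_s_at (3.794) in replicate 2. The deviations of over 0.4 log2 were those of Hspg2 1418670_s_at, Sdc1 1448158_at and Sdc3 1450027_at.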

How the results depend on the processing

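The count of 0 proteoglycan probe sets past an adjusted p of 0.05 held in every alternative run, over and under the filter, as did the 0 of the related genes. With the filter at log2 6, Gpc4, Gpc6 and Sdc2 1448545_at and 1417012_at were not tested. The number at an unadjusted p of 0.05, 2 in the analysis reported, was 4 with the replicate block and 2 to 4 with any 1 array left out. The share of all probe sets at this p is not given for these settings, so the counts show nothing particular to the members. Over all 9801 probe sets, 2 were past the adjusted threshold. Without a filter it was 1 of 22626, and with a filter at log2 6, which tests fewer probe sets, 34. Over the same 9801 it was 8 with trend and robust prior, 34 with array weights and 0 to 7 with any 1 array left out. It was 0 with the embryo sex covariate, the actin probe ratio or the replicate block. It was also 0 without wildtype replicates 1 and 2, a setting chosen after the data were seen. Of 248 recomputed member differences, 234 kept their direction and side of the threshold and 14 changed sign. The changes of filter, the floor at log2 4 and the trend and robust prior leave each of these differences as it was. Their signs could not change there, and the embryo sex covariate repeats 1 of the other settings, so the 234 overstates the stability. Gpc3, Gpc6, Sdc2 1417012_at and 1448545_at, and Sdc1 1415944_at and 1437279_x_at did not change sign. The block on the replicate number gave 0.39 for Gpc1, 0.19 for Gpc4, 0.035 for Sdc1 1415943_at, 0.23 for Sdc4 and 0.10 for Agrn, and 1.12 for Gpc3. For Sdc2 the block gave 0.79 on 1417011_at and 0.79 on 1448545_at, against 0.10 and 0.41 in the analysis reported, and 0.43 on 1417012_at. It rests on the 3 shared numbers only, so 4 arrays drop out of the comparison, and of these only number 5 correlated best with its own number. Without wildtype replicates 1 and 2, Gpc1 was 0.14, Gpc4 0.10 and Sdc1 1415943_at 0.001. Sdc2 1417011_at was -0.12 with the embryo sex covariate, which marks wildtype replicate 4 alone and so equals leaving it out, -0.38 with the actin probe ratio and -0.12 to 0.30 with any 1 array left out, and Gpc4 was -0.17 to 0.031 with any 1 left out. The cause of these changes was not tested. Raising values under log2 4 to 4 was not run for members under the filter, which it makes constant.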
